A study of Homo sapiens with 18 samples.

Results

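Described here are IGFBP3, IGF1R and RICTOR, 3 genes of insulin-like growth factor (IGF) and mTORC2 signalling, across 2 human acute myeloid leukaemia cell lines with and without targeting of CASP2, which encodes the cell death protease caspase-2. The genes were chosen by symbol from a table of RNA sequencing values that holds 5069 distinct sets of values. All 3 genes were found, and each passed the minimum set for testing. The 6 groups had 3 libraries each. They were OCI-AML3 clone 1 and clone 2, labelled NPM1c+ Caspase-2 KO, OCI-AML3 parental cells (NPM1c+ Caspase-2 WT), OCI-AML2 clone 1 and clone 2 (NPM1WT Caspase-2 KO) and OCI-AML2 parental cells (NPM1WT Caspase-2 WT). NPM1c+ marks mutated nucleophosmin, which lies in the cytoplasm. Per the series' design text the knockouts were made with CRISPR-Cas9, so every knockout group is 1 clone. All cells were untreated and had been in culture for less than 2 weeks. The design sets knockout clones against parental cells within each NPM1 background, and the clones of a line share their parental libraries.

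The IGF system works through a receptor tyrosine kinase, IGF1R, which binds IGF1 and IGF2 and signals through PI3K to the kinase AKT and through RAS to MAP kinases. IGFBP3 is a secreted protein that holds IGFs in the circulation and outside cells, can keep them from the receptor, and has been described to act on cells without IGF as well. RICTOR is the subunit that defines mTORC2, the mTOR complex that phosphorylates AKT and members of the SGK and protein kinase C families. Acute myeloid leukaemia cells often carry an active PI3K, AKT and mTOR pathway.

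The promoters of the 3 genes are shown because their mRNAs moved in different directions. The windows are the 250 bases before the RefSeq start (GRCh38.p14), printed 5′ to 3′ on the gene's strand. They lie at chr7:45921273-45921522 on the minus strand for IGFBP3, at chr15:98648289-98648538 on the plus strand for IGF1R and at chr5:39074400-39074649 on the minus strand for RICTOR. Capitals mark the GC box GGGCGG, or CCGCCC for the other strand.
IGFBP3: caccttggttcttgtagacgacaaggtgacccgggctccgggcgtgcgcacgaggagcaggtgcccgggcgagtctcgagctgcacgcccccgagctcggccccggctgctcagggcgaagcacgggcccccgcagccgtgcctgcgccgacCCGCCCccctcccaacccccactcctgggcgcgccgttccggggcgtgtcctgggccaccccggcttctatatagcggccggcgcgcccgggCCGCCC
IGF1R: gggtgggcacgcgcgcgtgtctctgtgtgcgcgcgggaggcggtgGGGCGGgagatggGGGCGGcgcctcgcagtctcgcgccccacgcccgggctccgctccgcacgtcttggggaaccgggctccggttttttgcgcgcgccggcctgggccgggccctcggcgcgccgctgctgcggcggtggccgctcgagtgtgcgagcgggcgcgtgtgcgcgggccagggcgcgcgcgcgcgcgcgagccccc
RICTOR: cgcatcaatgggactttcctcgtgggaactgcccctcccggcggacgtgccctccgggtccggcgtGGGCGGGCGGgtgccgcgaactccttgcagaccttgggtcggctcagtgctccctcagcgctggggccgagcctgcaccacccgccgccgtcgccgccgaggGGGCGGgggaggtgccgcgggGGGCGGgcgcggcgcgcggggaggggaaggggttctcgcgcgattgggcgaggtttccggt
All 3 windows were rich in G and C, with 76% in IGFBP3, 81.2% in IGF1R and 76% in RICTOR, against a median of 58% over 35116 windows of the same length. IGF1R held 48 CpG pairs, more than 99.7% of all windows, RICTOR 35 and IGFBP3 32, against a median of 11. There were 2 GC boxes in IGFBP3, 2 in IGF1R and 4 in RICTOR, of which 2 overlapped, and 42.6% of all windows held at least 1. The letters TATAAA (on either strand, found in 10.7% of windows) and the FOXO site core GTAAACA (2.98%) did not occur in these windows, and CCAAT (32%) occurred once, in RICTOR. Variants of these letters were not searched, and the IGFBP3 window holds TATATA near its end. A match describes letters only.

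Values are TPM as deposited (a unit scaled for transcript length and library total), with mean ± SD over 3 libraries, and the read depth of the libraries is unknown. Differences were tested with limma on log2(TPM + 1) over 4413 sets of values that reached 1 TPM in 3 or more libraries, and p-values were adjusted by Benjamini-Hochberg with a threshold of 0.05. A change on this scale understates that of low genes. The distinct sets of the table sum to 170140 to 199403 TPM per library, so it holds part of each library, and few of its sets differ little between the groups. CASP2 mRNA stood at 94.2% of its parental level in OCI-AML3 clone 1 and at 112% in clone 2, differences that did not pass (adjusted p = 0.537 and 0.240 in limma). In OCI-AML2 clones 1 and 2 it fell to 9.72% and 12.3%. A small deletion need not lower an mRNA, so the OCI-AML3 labels have no check in the mRNA level, and a direction in OCI-AML3 is that of clones labelled as knockouts. Of 43 marker genes of blood, epithelial and stromal cells, 7 had values that could be tied to the symbol, and these were 3 of 11 myeloid, 1 of 5 B cell, 2 of 6 T and NK cell and 1 of 7 stromal and endothelial markers. The granule protein gene AZU1 averaged 1371 to 6751 TPM per group, and the lysosomal gene CD68 188 to 823 TPM. The myeloid integrin gene ITGAM stayed at or under 1.39 TPM, and PAX5, a B cell factor, averaged 0.113 to 4.03 TPM per group. CD3D, a T cell gene, was listed at 0 in OCI-AML3 cells and OCI-AML2 parental cells and averaged 1.33 and 1.37 TPM in OCI-AML2 clones 1 and 2. In bulk samples fewer cells that express a gene and less RNA per cell cannot be told apart.

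IGFBP3 was the member with the widest range. The symbol stands in 2 lines of the table with different values, and each of these sets also stands under another symbol with the 3 values of OCI-AML3 clone 1 rotated. The rotation assigned the line used here to IGFBP3 (its twin carries MZB1) and the other line to GEM. IGFBP3 had 314.78, 308.79 and 317.87 TPM in OCI-AML3 clone 1 and 235.17, 218.05 and 222.1 TPM in clone 2, against 2.46, 3.2 and 2.89 TPM in OCI-AML3 parental cells. The 6 clone libraries lay far above the 3 parental ones, with no overlap. In OCI-AML2 it was listed at 0 in the 3 libraries of clone 1, at 0.05, 0 and 0 TPM in clone 2 and at 0 in the 3 parental libraries. OCI-AML2 cells of all kinds were thus at or close to 0.

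IGFBP3 rose 110.1-fold in OCI-AML3 clone 1 (314 ± 4.62 against 2.85 ± 0.372 TPM, log2 change 6.36, SE 0.07, adjusted p = 7.6e-21 in limma, where 72.2% of all tested sets passed, 31.3% as higher and 41.0% as lower). It rose 79.0-fold in clone 2 (225 ± 8.95 TPM, log2 change 5.88, adjusted p = 2.9e-20, where 73.1% passed, 31.6% as higher and 41.5% as lower). In each OCI-AML3 clone it had the fifth highest rise of the 4413 tested sets. Clone 2 stood at 71.7% of clone 1 (log2 difference -0.48, SE 0.07, adjusted p = 0.000518), a comparison in which 6.82% of sets passed. That difference did not pass with a pseudocount of 0.1 (adjusted p = 0.0728) or 0.01 (adjusted p = 0.631) in place of 1. Its size stayed at -0.48 with both, and the libraries of the OCI-AML3 clones did not overlap. Between the parental lines IGFBP3 was higher in OCI-AML3 than in OCI-AML2, where it was listed at 0 (log2 difference 1.94, adjusted p = 1.2e-14, where 90.6% of sets passed, 47.2% as higher and 43.4% as lower). No fold is given, and the log2 difference was 4.87 and 8.15 with pseudocounts of 0.1 and 0.01. Read instead from the line assigned to GEM, the values would be 2.65 and 1.79 TPM in OCI-AML3 clones 1 and 2 against 0.287 TPM in parental cells, with log2 changes of 1.51 and 1.12. The direction in OCI-AML3 would be the same and the size smaller. By the rule used here those values belong to GEM, so they are no support for the direction of IGFBP3. Of the 7 stromal and endothelial markers listed, the collagen gene COL1A2 was the one with a settled symbol, at 3.27 and 1.95 TPM in OCI-AML3 clones 1 and 2 and 0.137 TPM in OCI-AML3 parental cells. It moved with IGFBP3, and its part in the result was not tested. In OCI-AML2 clones 1 and 2 and parental cells COL1A2 averaged 0, 0.00667 and 0 TPM.

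**Figure D1:**
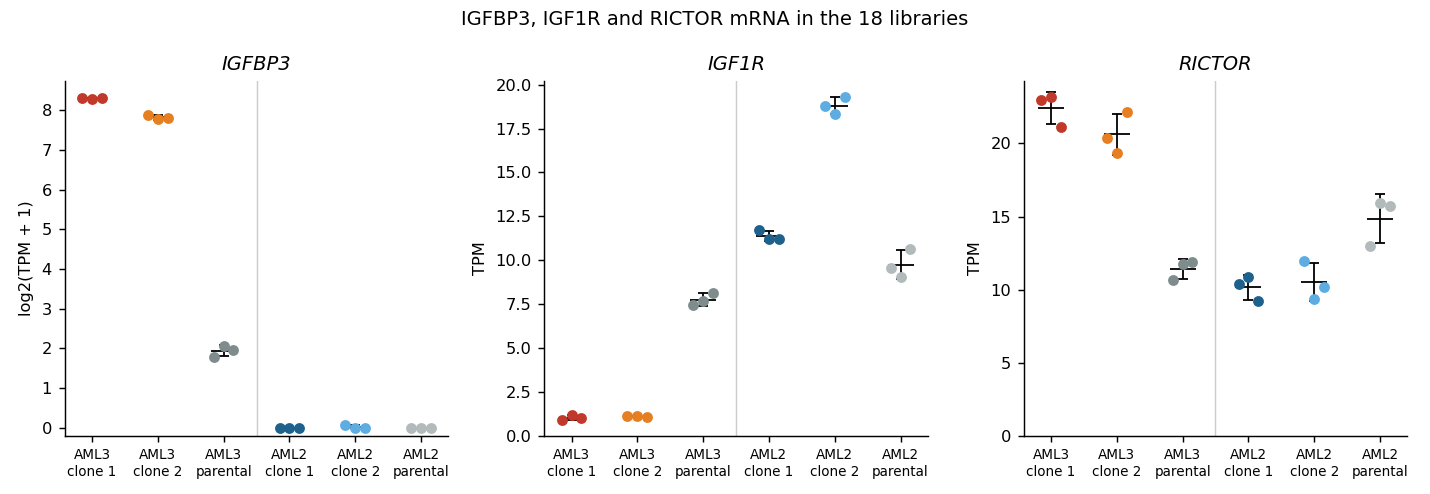
Each point is 1 library, with TPM on the vertical axis for IGF1R and RICTOR and log2(TPM + 1) for IGFBP3; bars are mean ± SD over 3 libraries of each of the 6 groups. IGFBP3 averaged 314 and 225 TPM in the OCI-AML3 clones, 2.85 TPM in OCI-AML3 parental cells and at most 0.0167 TPM in the OCI-AML2 groups.

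IGF1R moved the other way in the same OCI-AML3 clones. It had 0.89, 1.16 and 1.02 TPM in OCI-AML3 clone 1 and 1.11, 1.1 and 1.05 TPM in clone 2, against 7.44, 7.68 and 8.14 TPM in OCI-AML3 parental cells. The clone libraries were all near 1 TPM and did not overlap the parental ones. The receptor mRNA fell in clone 1, where 13.2% of the parental level was left (log2 change -2.11, SE 0.07, adjusted p = 2.6e-14). It also fell in clone 2, where 14.02% was left (-2.07 on the log2 scale, adjusted p = 3.2e-14). Counted from the largest fall, these stood at rank 147 in clone 1 and rank 157 in clone 2 of 4413 sets. The clones differed from each other by 0.05 on the log2 scale (95% interval -0.11 to 0.20, adjusted p = 0.781).

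In OCI-AML2 the level of IGF1R was higher in the clones. It had 11.71, 11.22 and 11.19 TPM in clone 1 and 18.77, 18.33 and 19.29 TPM in clone 2, against 9.56, 9.06 and 10.64 TPM in OCI-AML2 parental cells. Clone 2 lay well above both other groups, while the lowest library of clone 1 was 11.19 TPM and the highest parental one 10.64 TPM. In clone 2 IGF1R rose to 193% of the parental level (log2 change 0.88, SE 0.07, adjusted p = 6.3e-09, where 65.7% of sets passed, 38.3% as higher and 27.5% as lower). In clone 1 it rose to 117% (log2 change 0.20, SE 0.07, adjusted p = 0.0238, where 56.0% passed, 35.1% as higher and 20.9% as lower). The clone 1 call ended under 7 of 26 alternatives. It ended without OCI-AML2 parental replicate 1 (log2 change 0.19, adjusted p = 0.0664), without parental replicate 2 (0.16, adjusted p = 0.115) and without clone 1 replicate 1 (0.19, adjusted p = 0.0766), and after rescaling the libraries the value was 0.11 (adjusted p = 0.204). Clone 2 exceeded clone 1 by 0.68 on the log2 scale (SE 0.07, adjusted p = 3.5e-07, where 58.9% of sets passed). OCI-AML3 parental cells had 79.5% of the IGF1R level of OCI-AML2 parental cells (log2 difference -0.29, SE 0.07, adjusted p = 0.00103). Of all tested sets, 88.6% differed at least as much. The symbol was accepted on the condition of a small parental ratio, so the size of this difference was limited in advance. NKG7, a cytotoxic granule gene on the marker list, averaged 3.28 and 4.79 TPM in OCI-AML3 clones 1 and 2, against 16.75 TPM in parental cells, and 129 and 173 TPM in OCI-AML2 clones 1 and 2, against 69.2 TPM in parental cells. ITGAM averaged 0.02 and 0.0533 TPM in OCI-AML3 clones 1 and 2, against 0.2 TPM in parental cells, and 1.39 and 1.38 TPM in OCI-AML2 clones 1 and 2, against 0.283 TPM in parental cells. NKG7 and ITGAM passed in all 4 clones in the direction of IGF1R. ITGAM met the minimum for testing only through the OCI-AML2 clones, which favours a call as higher there. In OCI-AML3 it was at most 0.24 TPM in any library, so its fall there lay near 0. CD68 and PAX5 passed as lower in both OCI-AML3 clones, where CD68 averaged 188 and 216 TPM in clones 1 and 2, against 823 TPM in parental cells (log2 changes -2.12 and -1.92, highest adjusted p = 3.4e-11 in limma), and PAX5 0.18 and 0.113 TPM, against 0.433 TPM in parental cells. In OCI-AML2, CD68 passed as lower in clone 2 (-0.30, adjusted p = 0.0254 in limma) and not in clone 1 (-0.02), while PAX5 passed as higher in clone 1 (0.87) and not in clone 2 (0.12). CD3D changed by 1.21 and 1.24 in OCI-AML2 clones 1 and 2. It was listed at 0 in all other groups and met the minimum for testing only through these clones. It could therefore be called only as higher there, and the call is no result of its own. AZU1 passed as higher in OCI-AML2 clone 1 (1.69) but in no other clone. The part of these markers in the IGF1R result was not tested. From high to low the IGF1R order was OCI-AML2 clone 2, clone 1 and parental, then OCI-AML3 parental, clone 2 and clone 1, and only the last neighbours, the OCI-AML3 clones, did not differ beyond their spread in the limma fit.

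RICTOR changed with opposite signs in the lines, and in the OCI-AML3 clones its log2 changes were smaller than those of IGFBP3 and IGF1R. It had 22.96, 23.2 and 21.16 TPM in OCI-AML3 clone 1 and 20.4, 19.34 and 22.13 TPM in clone 2, against 10.66, 11.73 and 11.92 TPM in OCI-AML3 parental cells. All 6 clone libraries lay above all 3 parental ones. The mRNA rose 1.96-fold in clone 1 (log2 change 0.91, SE 0.10, adjusted p = 9.1e-08). It rose 1.80-fold in clone 2 (0.80 on the log2 scale, adjusted p = 5.5e-07). In size these changes were ordinary for the table, since 35.6% of sets in clone 1 and 39.7% in clone 2 changed at least as much.

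In OCI-AML2, RICTOR had 10.39, 10.89 and 9.21 TPM in clone 1 and 11.97, 9.39 and 10.17 TPM in clone 2, against 12.96, 15.93 and 15.69 TPM in OCI-AML2 parental cells. The groups did not overlap, although the lowest parental library was close to the highest of clone 2. RICTOR fell in OCI-AML2 clone 1, which kept 68.4% of the parental level (log2 change -0.50, SE 0.10, adjusted p = 0.000196). Clone 2 kept 70.7% (-0.46 on the log2 scale, adjusted p = 0.000333). OCI-AML3 parental cells had 77.0% of the OCI-AML2 parental level (log2 difference -0.35, adjusted p = 0.00240). At least as large a difference was seen in 86.8% of sets, and the symbol was accepted on the condition of a small parental ratio. The order from high to low was OCI-AML3 clone 1 and clone 2, OCI-AML2 parental, OCI-AML3 parental, and OCI-AML2 clone 2 and clone 1. The OCI-AML3 clones did not differ beyond their spread (clone 2 minus clone 1 -0.12, 95% interval -0.32 to 0.08, adjusted p = 0.506), nor did OCI-AML3 parental cells from OCI-AML2 clone 2 (0.12, adjusted p = 0.253) or the OCI-AML2 clones from each other (0.04, 95% interval -0.16 to 0.24, adjusted p = 0.775). RICTOR stood near the lower edge of what the table lists, since 1.48% of its 5069 sets had a smaller largest log2 ratio over the parental lines, the mean of the OCI-AML3 clones and OCI-AML2 clone 1. That largest ratio was the one of the OCI-AML3 clones (0.91, against -0.38 between the parental lines and -0.55 in OCI-AML2 clone 1). The same held for IGF1R (2.87, against -0.33 and 0.22). If the table was chosen by such ratios, both genes stand in it through their OCI-AML3 change. The p-values of that change are then not independent of the choice. Exact two-sided permutation tests of log2(TPM + 1) gave p = 0.1, the smallest that 3 against 3 libraries allow, for each clone against its parental cells in IGF1R and RICTOR and for both OCI-AML3 clones in IGFBP3. With both clones of a line pooled (6 against 3 libraries) the exact p was 0.0238, the smallest possible, in the same cases, and 1 for IGFBP3 in OCI-AML2. The pooled test takes the libraries of both clones as replicates, although libraries of a clone are not separate knockouts. Its p-value therefore measures the spread between libraries and not between clones, and the OCI-AML2 clones differed in IGF1R.

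**Figure D2:**
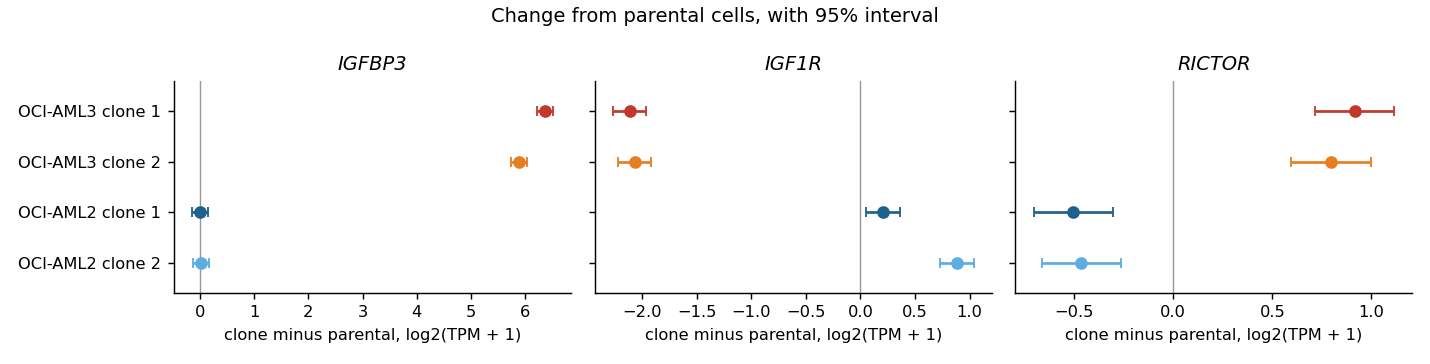
Points give the clone minus parental difference in log2(TPM + 1) and bars its 95% interval in the limma fit, with OCI-AML3 clones above OCI-AML2 clones. IGF1R lies below 0 in OCI-AML3 (-2.11 and -2.07) and above 0 in OCI-AML2 (0.20 and 0.88), and RICTOR lies the other way round (0.91 and 0.80 against -0.50 and -0.46).

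The change from parental cells to clones differed between the lines for all 3 members, in a comparison that 81.7% of all tested sets passed. OCI-AML3 minus OCI-AML2, the difference between mean clone changes was 6.11 for IGFBP3 (SE 0.09, adjusted p = 3.1e-19), -2.64 for IGF1R (SE 0.09, adjusted p = 2.2e-14) and 1.34 for RICTOR (SE 0.12, adjusted p = 7.9e-09), while the median over all sets was -0.23. Rescaling by medians of ratios moved that median by 0.15, and the 3 differences kept their sign and passed. IGF1R was among 368 sets (8.34% of 4413) that were lower in both OCI-AML3 clones and higher in both OCI-AML2 clones, and RICTOR among 191 (4.33%) with the reverse. TPM is scaled for length, so levels of the members can be set against each other. Transcripts of the binding protein outnumbered those of the receptor 307-fold in OCI-AML3 clone 1 and 207-fold in clone 2, against a ratio of 0.368 in OCI-AML3 parental cells (ratios of mean TPM). RICTOR stood at 21.9 and 19.0 times the IGF1R level in OCI-AML3 clones 1 and 2, against 1.48 in OCI-AML3 parental cells. In OCI-AML2 that ratio was 0.894 in clone 1 and 0.559 in clone 2, against 1.52 in parental cells. The OCI-AML3 clones thus lay above their parental cells in it and the OCI-AML2 clones below theirs. The symbols of IGF1R and RICTOR were accepted on the condition of an absolute parental log2 ratio under 0.6. The likeness of the parental lines in this ratio was therefore partly fixed in advance.

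**Figure D3:**
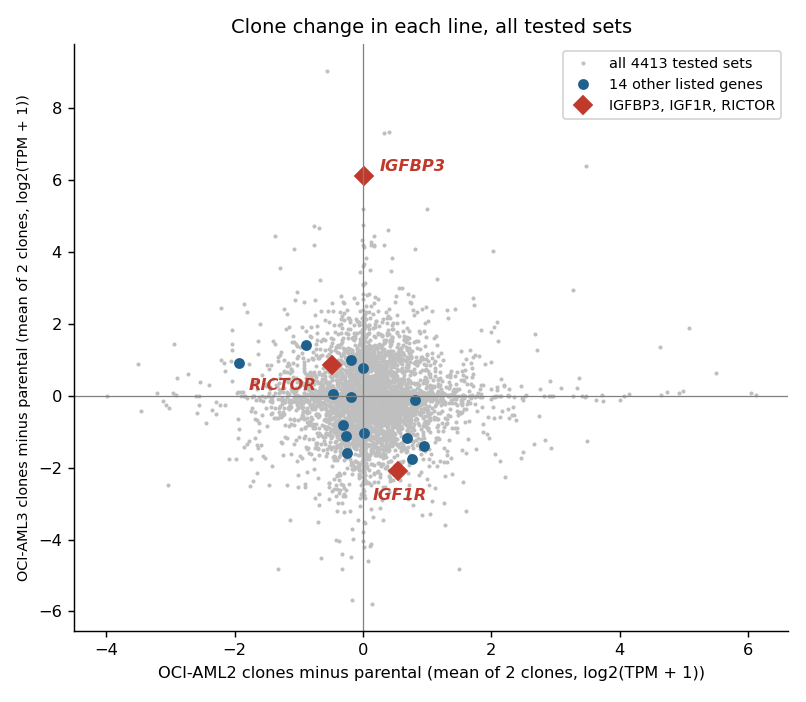
Each grey point is 1 of 4413 tested sets, with the mean change of both OCI-AML2 clones on the horizontal and of both OCI-AML3 clones on the vertical axis, in log2(TPM + 1); diamonds are the 3 members and blue points 14 other listed genes. IGFBP3 lies near the top at about 0 on the horizontal axis, and IGF1R and RICTOR lie in opposite quadrants.

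The members were set beside 7 lists of the pathway, which name 128 genes. Of these, 46 symbols stand in the table, 19 of them had values that could be tied to the symbol and 17 were tested; the other 27 are not named with values. Passing in both clones of OCI-AML3 in 1 direction was common, with 28.7% of the 4413 sets higher and 38.3% lower; for OCI-AML2 the shares were 23.8% higher and 14.6% lower. Over the 2084 tested sets whose symbol was settled, the OCI-AML3 shares were 36.2% higher and 49.1% lower, and those of OCI-AML2 28.5% higher and 17.3% lower. Both OCI-AML3 clones had 6 of the 17 listed genes raised and 8 lowered (median log2 change -0.12, against -0.26 over the 2084 sets). These counts, and those without the members below, include PDK4 as raised and IGFBP2 as lowered. PDK4 met the minimum for testing only through the OCI-AML3 clones, and IGFBP2 only through OCI-AML3 parental cells. The minimum favoured the direction of both, so their calls add no support. Both OCI-AML2 clones had 5 raised and 3 lowered (median -0.19, against 0.07). The other 3 genes in OCI-AML3 and 9 in OCI-AML2 did not pass in both clones in 1 direction. Without the 3 members, OCI-AML3 had 4 of 14 raised and 7 lowered with a median of -0.46, below that of the 2084 sets, and OCI-AML2 had 4 raised and 2 lowered with a median of -0.19. The pattern of IGF1R, lower in OCI-AML3 and higher in OCI-AML2, was shared by IGFBP7, SOCS2 and SESN3, which are 3 of the 14 listed genes that are no members, and by 11.6% of the 2084 sets. The reverse pattern of RICTOR was shared by GAB2 and DDIT4, 2 of the 14, and by 6.29% of the sets.

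Among ligands and receptors, IGF1R was the tested gene of 7 listed. Of the IGF-binding proteins and their proteases, 4 of 14 were tested, of which both OCI-AML3 clones had 1 raised and 2 lowered. IGFBP7, a secreted relative with low affinity for IGFs, averaged 30.8 ± 2.62 and 28.3 ± 1.98 TPM in OCI-AML3 clones 1 and 2, against 79.5 ± 10.9 TPM in parental cells (log2 changes -1.33 and -1.45, highest adjusted p = 4.0e-10). In OCI-AML2 IGFBP7 averaged 98.0 ± 5.34 and 131 ± 9.95 TPM in clones 1 and 2, against 57.8 ± 3.17 TPM in parental cells (0.75 and 1.16, highest adjusted p = 1.8e-06). It therefore fell where IGFBP3 rose and was the most abundant IGF-binding protein of the tested ones outside the OCI-AML3 clones. IGFBP2, another secreted IGF carrier, averaged 0.0433 and 0.0900 TPM in OCI-AML3 clones 1 and 2, against 1.18 ± 0.147 TPM in parental cells, and at most 0.0333 TPM in the OCI-AML2 groups. The endocytic receptor gene LRP1, which can bind IGFBP3, averaged 5.27 and 6.97 TPM in OCI-AML3 clones 1 and 2, against 6.26 TPM in parental cells, and passed as lower in clone 1 (-0.21, adjusted p = 0.0224 in limma) but not in clone 2 (0.13, adjusted p = 0.142). In OCI-AML2 LRP1 was near 0, with 0.03 and 0.01 TPM in clones 1 and 2 and 0.167 TPM in parental cells. There it passed as lower in clone 2 (-0.21, adjusted p = 0.0268 in limma) but not in clone 1 (-0.18, adjusted p = 0.0610).

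Of the adaptors and inhibitors, 3 of 22 were tested. GAB2, a docking protein that links receptors to PI3K, averaged 10.2 ± 0.288 and 12.04 ± 0.26 TPM in OCI-AML3 clones 1 and 2, against 3.53 ± 0.428 TPM in parental cells (log2 changes 1.30 and 1.53). In OCI-AML2 GAB2 averaged 16.2 ± 1.52 and 6.85 ± 0.409 TPM in clones 1 and 2, against 20.5 ± 0.681 TPM in parental cells (-0.32 and -1.46, highest adjusted p = 0.00189 in limma), and so followed the direction of RICTOR in each clone. SOCS2, which limits growth hormone and cytokine signalling, averaged 1.36 and 1.35 TPM in OCI-AML3 clones 1 and 2, against 6.83 ± 0.864 TPM in parental cells, and 74.1 and 71.7 TPM in OCI-AML2 clones 1 and 2, against 42.6 ± 1.48 TPM in parental cells. SOCS1, an inhibitor of JAK kinases, rose in both OCI-AML3 clones (1.00 each on the log2 scale) and did not pass in OCI-AML2 (-0.28 and -0.10, adjusted p = 0.0827 and 0.536 in limma).

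Besides RICTOR, the mTORC2 list of 16 genes had 2 tested members, both protein kinase C genes whose products depend on mTORC2 for their maturation. PRKCB averaged 19.6 ± 1.05 and 20.1 ± 1.47 TPM in OCI-AML3 clones 1 and 2, against 44.2 ± 1.67 TPM in parental cells (log2 changes -1.14 and -1.10, highest adjusted p = 7.5e-11). PRKCE averaged 0.993 and 0.827 TPM in the same clones, against 2.33 ± 0.430 TPM in parental cells (-0.74 and -0.87). Both fell in OCI-AML3, where RICTOR rose. In OCI-AML2 PRKCB passed as lower in clone 2 (-0.39, adjusted p = 7.1e-05) and PRKCE in clone 1 (-0.39, adjusted p = 0.0111), and neither passed in both clones. In the PI3K and AKT list 1 of 23 genes was tested, the AKT phosphatase gene PHLPP2, which did not pass in OCI-AML3 (0.09 and 0.04) and fell in OCI-AML2 clone 1 (-0.77, adjusted p = 2.4e-05) but did not pass in OCI-AML2 clone 2 (-0.16, adjusted p = 0.259). The OCI-AML2 clones differed in PHLPP2 (clone 2 minus clone 1 0.61, adjusted p = 0.000265 in limma).

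Of 33 mTORC1 genes, 4 were tested. DDIT4, which restrains mTORC1 under stress, averaged 499 ± 32.5 and 436 ± 9.81 TPM in OCI-AML3 clones 1 and 2, against 249 ± 23.7 TPM in parental cells, and 96.2 ± 3.88 and 21.7 ± 1.45 TPM in OCI-AML2 clones 1 and 2, against 178 ± 15.9 TPM in parental cells. SESN3, a sestrin that also restrains mTORC1, moved in the opposite way, with log2 changes of -1.15 and -1.20 in OCI-AML3 clones 1 and 2 and of 0.40 and 0.96 in OCI-AML2 clones 1 and 2. The Rag GTPase gene RRAGD fell in both OCI-AML3 clones (-1.55 and -1.61), and in OCI-AML2 it was higher in clone 1 (0.21, adjusted p = 0.0458) and lower in clone 2 (-0.71, adjusted p = 1.1e-06). RHEBL1, a relative of the mTORC1 activator RHEB, rose in both OCI-AML2 clones (1.04 and 0.58) and did not pass in OCI-AML3 (0.05 and -0.30). Of the FOXO and GSK3 list, 1 of 13 genes was tested: PDK4, a kinase that inhibits pyruvate dehydrogenase, averaged 2.00 and 1.91 TPM in OCI-AML3 clones 1 and 2, against 0.727 TPM in parental cells (0.79 and 0.76), and was listed at 0 in all OCI-AML2 libraries.

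**Figure D4:**
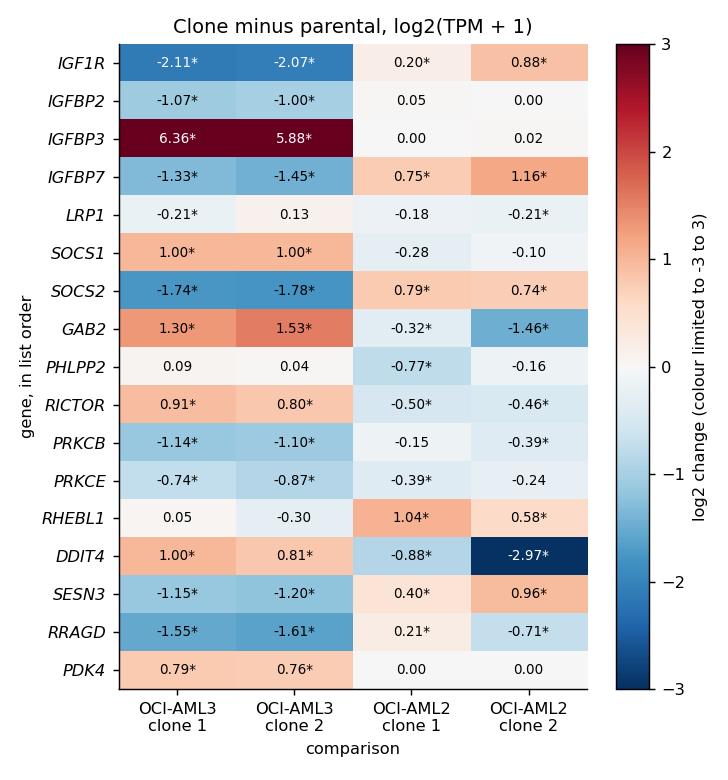
Rows are the 17 tested genes of the pathway lists and columns the 4 clones, each against its parental cells; numbers and colour give the difference in log2(TPM + 1), and an asterisk marks an adjusted p under 0.05. IGF1R, IGFBP7, SOCS2 and SESN3 are blue in OCI-AML3 and red in OCI-AML2, and GAB2, RICTOR and DDIT4 the reverse.

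The genes most like each member over the 18 libraries were found by Pearson correlation of log2(TPM + 1) among the 2084 tested sets with a settled symbol. For IGFBP3 these were PDGFA (r = 0.998), which encodes a growth factor chain, PDE9A (r = 0.998), which encodes a phosphodiesterase of cyclic GMP, and ALS2CL (r = 0.998). PDGFA averaged 25.7 and 26.5 TPM in OCI-AML3 clones 1 and 2, 1.39 TPM in OCI-AML3 parental cells and at most 0.157 TPM in the OCI-AML2 groups. For IGF1R they were CDCA7 (r = 0.996), a MYC-responsive cell cycle gene, the tetraspanin gene CD82 (r = 0.993) and the zinc finger gene ZNF28 (r = 0.993). CDCA7 averaged 7.79 and 9.52 TPM in OCI-AML3 clones 1 and 2, against 44.4 TPM in parental cells, and 62.3 and 95.3 TPM in OCI-AML2 clones 1 and 2, against 58.1 TPM in parental cells. For RICTOR they were IL13RA1 (r = 0.966), a receptor chain for interleukin-13, OTULIN (r = 0.956), a linear deubiquitinase, and SPOCK1 (r = 0.955), a proteoglycan gene. IL13RA1 averaged 35.7 and 35.6 TPM in OCI-AML3 clones 1 and 2, against 13.1 TPM in parental cells, and 13.5 and 10.8 TPM in OCI-AML2 clones 1 and 2, against 17.4 TPM in parental cells. The 18 points are 6 groups of 3 libraries, so these values mostly rank group means. Among the members, r was -0.976 between IGF1R and IGFBP3, -0.907 between IGF1R and RICTOR and 0.883 between IGFBP3 and RICTOR.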

How the data were processed

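RNA sequencing libraries of 6 groups, 3 per group, were analysed, with groups and replicate numbers from the sample titles. The authors deposited 1 table of TPM values, per the file headers; any aligner, counting tool, build or annotation was not given in the sources used here. All 18 value columns matched a sample. TPM keeps no read depth, so no counting error is given, and nothing says that replicates came from separate cultures, so p-values measure the spread between libraries, which may be technical.

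The table has 6999 lines with 4816 symbols, and 1319 of its 5069 distinct sets of values stand under 2 symbols. Each set was counted once. Where the values of OCI-AML3 clone 1 read a, b, c under one symbol and b, c, a under another, the first was kept (1234 sets). Symbols were also accepted for 413 sets repeated under 1 symbol and for 673 single lines with an absolute log2 ratio between parental lines under 0.6. IGF1R and RICTOR were such single lines, and the smallest parental ratio of a set seen in both orders was 0.791. Sets without a settled symbol (2749) entered the fits unnamed.

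Sets with at least 1 TPM in 3 libraries (4413; 656 were below) were converted to log2(TPM + 1). The fit used limma 3.58.1 (R 4.3.3), a mean for each group, an intensity trend and Benjamini-Hochberg adjustment within each comparison. The fit was tested on simulated data. Single values were compared with exact permutation tests (scipy 1.17.1). Changed in a line means passing in both clones in the same direction; the clones share their parental libraries. Listed genes passing in a line, at most 4 per list and line, and the 3 genes most correlated with each member were named. The members, lists and tests were chosen with earlier results of these data known. Alternatives changed the pseudocount, minimum, scaling, trend, groups in the fit and replicate block, or left out a library. Promoter windows are from RefSeq (GRCh38.p14), all 3 members matched.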

Additional observations from a re-analysis of the deposited data

Results flagged for a closer look

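The change from parental cells to clones differed between the lines, by the test of the difference itself in limma, for all 15 genes that the rule for listed genes names, in a comparison that 81.7% of all 4413 tested sets passed. The rule names listed genes that passed in both clones of a line, which favours a difference between lines. The 81.7% was not chosen in that way and is no matching background. Of the tested listed genes outside the rule, LRP1 did not pass (0.15, adjusted p = 0.147 in limma) and PHLPP2 did (0.53, adjusted p = 0.00299). LRP1 averaged at most 0.167 TPM in the OCI-AML2 groups, so a fall there could hardly be seen. OCI-AML3 minus OCI-AML2, the difference in log2(TPM + 1) was 6.11 for IGFBP3, -2.64 for IGF1R and 1.34 for RICTOR. Among the other binding proteins, adaptors and inhibitors it was -1.06 for IGFBP2, -2.35 for IGFBP7, 1.19 for SOCS1, -2.52 for SOCS2 and 2.31 for GAB2. Among the protein kinase C, mTORC1 and FOXO genes it was -0.85 for PRKCB, -0.49 for PRKCE, -0.93 for RHEBL1, 2.83 for DDIT4, -1.85 for SESN3, -1.33 for RRAGD and 0.77 for PDK4. The highest adjusted p of the 15 was 0.00603, for PRKCE. For IGFBP3, listed at 0 in 8 of 9 OCI-AML2 libraries, and for IGFBP2 and PDK4 the OCI-AML2 libraries were at or near 0, so a fall in OCI-AML2 could not be seen and the difference is close to the OCI-AML3 change alone. PDK4 met the minimum for testing only through the OCI-AML3 clones and IGFBP2 only through OCI-AML3 parental cells, which favoured the direction of each.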

How the results depend on the processing

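Each member's change in the OCI-AML3 clones, the difference of changes between lines and the parental difference kept direction and call under all alternatives listed here (26 each, or 25 for the difference between lines): pseudocounts of 0.1 and 0.01, a minimum of 5 TPM, no minimum, rescaling, no trend, fewer groups in the fit, the replicate block and each of 18 libraries left out. So did RICTOR in both OCI-AML2 clones and IGF1R in OCI-AML2 clone 2. IGF1R in OCI-AML2 clone 1 did not pass with a pseudocount of 0.1 (0.22, adjusted p = 0.0660) or 0.01 (0.22, adjusted p = 0.0699), after rescaling (0.11) or with 2 groups in the fit (0.20, adjusted p = 0.0539), and ranged from 0.16 to 0.26 with a library left out; the cause was not tested. IGFBP3 in OCI-AML3 clone 2 minus clone 1 did not pass with a pseudocount of 0.1 or 0.01 (-0.48 each), and ranged from -0.51 to -0.46 with a library left out. The sign of 2 differences that did not pass turned round with a library left out: IGF1R in OCI-AML3 clone 2 minus clone 1 (-0.0016 to 0.095) and RICTOR in OCI-AML2 clone 2 minus clone 1 (-0.048 to 0.11; -0.02 without clone 1 replicate 3).

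Sets that differed between OCI-AML3 clone 2 and clone 1 numbered 301, but 166 and 156 with pseudocounts of 0.1 and 0.01, 155 with 2 groups in the fit and 102 to 369 with a library left out. It was 143, 181 and 180 without OCI-AML3 clone 1 replicate 1, 2 and 3, and 171 and 102 without OCI-AML3 clone 2 replicate 1 and 2. The replicate numbers within OCI-AML3 clone 1 are uncertain because of the rotated lines, which leaves group values as they are. Counts of the other comparisons stayed within 1.5 times. Deviations from group means correlated at -0.357 to 0.171 between same-numbered libraries of clones and parental cells. Between libraries with other numbers the range was -0.168 to 0.263. The numbers were therefore not used as pairs in the main fit. For OCI-AML3 clone 1, whose replicate order is uncertain, these values cannot tell whether libraries were paired. With the replicate block, IGF1R in OCI-AML2 clone 1 had an adjusted p of 0.0321 and 241 sets differed between the OCI-AML3 clones; it changed no call of a member. Reading IGFBP3 from the line assigned to GEM was chosen after seeing the data. The alternative of fitting only the groups compared was not run for the difference between lines, which uses all 6. Read depth is unknown, so values near 0, such as IGFBP3 in OCI-AML2, cannot be told from absence of reads, and the table is only part of each library.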
